A study of Homo sapiens with 10 samples.

Results

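RBM4 knockout clone 2 was compared with wild type HAP1 cells in the paired-end RNA-seq table of the study, on gene rows and repeat rows. The comparison uses 2 clone 2 libraries and 3 wild type libraries, 5 of the 10 libraries of the series, chosen by their labels and not by any measured value. HAP1 is a near-haploid human line derived from KBM-7. Both groups were labelled by genotype alone (wild type, RBM4 KO), grew in one medium, and carry no treatment or time point in the labels. The 3 libraries of a separate knockout clone, clone 1, entered the same fit and serve to show which changes are particular to clone 2. Clone 2 is 1 clone, so the loss of RBM4 and whatever else sets this clone apart cannot be told apart in it. Nothing in the labels says that its libraries came from separate cultures, so p-values describe the spread among these libraries alone, which may be technical.

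RBM4 is an RNA-binding protein that moves between nucleus and cytoplasm and acts in the choice of alternative exons, in translation and in silencing by small RNAs. It is known for its part in muscle, fat and nerve cell differentiation. HAP1 cells grow attached to the dish and have lost most features of the leukaemic blood cells they came from. A knockout line grown from 1 cell also carries whatever expression state that founder had.

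Total counts were 40060383 and 46690703 in the clone 2 libraries, within the range of all 8 paired-end libraries (33192095 to 55617525). Of 23 genes that mark blood cells, 16 stayed under 10 counts in every library and 6 were at 0 in all 8. The defining marker PTPRC had 0 or 1 count in each. TAL1, RUNX1, RUNX3, CORO1A and KIT were expressed in every library, TAL1 at 43.3 to 45.3 CPM in wild type and 45.6 and 44.7 CPM in clone 2. Of 6 tested members 0 rose and 1 fell, KIT, at 12.1 to 13.5 CPM in wild type and 5.84 and 5.85 CPM in clone 2. These levels are per unscaled library size. Summed blood cell markers, per unscaled library size, were 113 to 119 CPM in wild type and 119 CPM in both clone 2 libraries. Summed endothelial markers were 2.8 to 3.44 CPM in wild type and 4.54 to 5.64 CPM in clone 2. Of these 11 genes 8 stayed under 10 counts in every library. The sum was mostly ESAM, at 2.72 to 3.16 CPM in wild type and 3.98 to 5.14 CPM in clone 2. Levels below are CPM, counts scaled to a fixed library size by edgeR's TMM factors. A gene is said to have risen or fallen when edgeR's quasi-likelihood test gave a Benjamini-Hochberg adjusted p below 0.05 over all 20747 features tested. The median log2 fold change of all features was 0.01. Gene GC content moved with the libraries: across genes, the Spearman correlation of GC content with a library's departure from the mean of all 8 libraries was -0.43, -0.36 and -0.25 in wild type and 0.35 and -0.051 in clone 2.

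RBM4 itself (ENSG00000173933, chromosome 11, 66638617 to 66668374, GENCODE 29 on GRCh38) stood at 79.8, 79.8 and 78.7 CPM in wild type and at 25.3 and 25.8 CPM in clone 2. Clone 1 was at 22.3, 22.9 and 24.5 CPM. In clone 2 its RNA fell without disappearing (log2 fold change -1.64, SE 0.0639, adjusted p = 1.37e-09), and the groups were far apart. The read-through gene RBM14-RBM4, which shares exons with it, went from 84, 82 and 82.3 CPM to 34.1 and 33.1 CPM (log2 fold change -1.30, adjusted p = 8.12e-09). The paralog RBM4B rose from 30.5, 30.1 and 30.6 CPM to 45.6 and 48.4 CPM (log2 fold change 0.63, adjusted p = 2.96e-05), and the neighbour RBM14 did not pass the test (log2 fold change 0.04, adjusted p = 0.764). These genes overlap or share sequence. The sources used here do not state whether counting used strand, so the split of reads among them is uncertain.

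Promoters are shown for 4 genes at the ends of the range described below: SERPINB1 and ALDH1L1, which had 1 and 0 counts in clone 2, and PDGFRA and S100A11, which rose several fold there. Each run gives the 250 bases before the RefSeq start site (GRCh38.p14), 5′ to 3′ on the gene's strand, with each CG dinucleotide in capitals, at chr6:2841864-2842113, minus strand, chr3:126180587-126180836, minus strand, chr4:54229043-54229292, plus strand and chr1:152037005-152037254, minus strand.
SERPINB1: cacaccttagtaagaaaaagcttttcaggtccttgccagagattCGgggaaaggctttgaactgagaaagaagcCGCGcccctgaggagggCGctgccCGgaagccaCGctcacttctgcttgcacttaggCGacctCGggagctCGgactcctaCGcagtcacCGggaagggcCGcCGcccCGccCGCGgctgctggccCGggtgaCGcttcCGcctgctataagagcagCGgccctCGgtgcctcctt
ALDH1L1: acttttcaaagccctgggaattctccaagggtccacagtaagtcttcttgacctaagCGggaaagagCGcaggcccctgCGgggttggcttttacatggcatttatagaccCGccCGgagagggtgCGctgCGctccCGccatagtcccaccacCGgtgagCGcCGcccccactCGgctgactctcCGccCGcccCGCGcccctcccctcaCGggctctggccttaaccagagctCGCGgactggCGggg
PDGFRA: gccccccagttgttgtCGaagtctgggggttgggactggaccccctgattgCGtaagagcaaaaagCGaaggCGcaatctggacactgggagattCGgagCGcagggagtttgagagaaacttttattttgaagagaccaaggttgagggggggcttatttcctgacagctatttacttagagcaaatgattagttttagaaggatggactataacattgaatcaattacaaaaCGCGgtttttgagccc
S100A11: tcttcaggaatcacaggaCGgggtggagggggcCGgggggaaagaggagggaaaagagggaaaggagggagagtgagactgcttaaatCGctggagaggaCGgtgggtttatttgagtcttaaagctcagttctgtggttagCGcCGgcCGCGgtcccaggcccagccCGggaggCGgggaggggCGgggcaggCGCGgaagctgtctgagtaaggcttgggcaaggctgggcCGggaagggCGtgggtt
The windows of SERPINB1 and ALDH1L1 hold 21 and 20 CG, those of PDGFRA and S100A11 hold 8 and 15. Over the 11928 tested genes with such a window the median was 21 CG (quartiles 14 and 28), and 84% held 10 or more. The 85 genes with a window that rose 4-fold or more in clone 2 had a median of 9 CG (quartiles 3 and 21), and 47.1% held 10 or more. Among the 1510 tested genes with a window and a wild type mean below 1 CPM, whatever their change, the median was 14 CG and 60.2% held 10 or more. The 65 genes that fell 4-fold or more had a median of 16 CG. CG was counted as the letters CG, which read the same on both strands, and methylation was not measured.

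Of 20747 features, 2236 were called in clone 2 against wild type (10.8%), 6.18% higher and 4.59% lower. Among 19683 genes 1265 rose (6.43%) and 951 fell (4.83%), the shares to set beside each count of list members below. Among 1064 repeat subfamilies 18 rose and 2 fell (1.88% called in either direction). Most changes were small: the median absolute log2 fold change of called genes was 0.51, and 400 genes rose and 196 fell by 2-fold or more, 151 and 93 by 4-fold or more. Fewer features were called with 1 of these libraries left out, a fit with fewer samples in which a lone clone 2 library is assumed to vary like the other groups. The number was 1033 without clone 2 replicate 1, 1449 without clone 2 replicate 2 and 1268 without wild type replicate 1, rises were 822 without wild type replicate 2, and falls were 610 without wild type replicate 3. The excess of rises over falls, 1283 against 953 features, turned into 1527 against 1629 when only the 5 libraries compared were fitted. It was 1463 against 1601 with a term for the sample number in the column names.

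Calls followed GC content. Under 40% GC, 250 of 2207 tested genes fell and 35 rose, whereas from 60% GC upward 336 of 2788 rose and 29 fell. With a GC correction per library the first class had 112 falls and 78 rises, the other 249 rises and 127 falls. Of the 599 features called at 2-fold or more, 582 kept their call under that correction, against 1102 of the 1637 called at less than 2-fold. The part of GC content in the remaining small changes was not tested. Neighbours of a named gene, members of chromosome runs and the list members ABCC4, JUN, DUSP4, DUSP6, ID1, ID2, ID3, NOG, KRT18, COL1A1, FBLN1, TUBB3, HLA-B, NFKBIA, NFKB2, DLK1, PEG10, POU5F1, SLC3A2 and SNTG2 lie outside the naming rule and were chosen after their values were seen.

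The strongest falls among genes with a log2 CPM averaging 1 or more were near losses of RNA. SERPINB1 (ENSG00000021355, chromosome 6, 2832332 to 2842006), an inhibitor of neutrophil serine proteases that also acts inside other cells, was at 10.1, 9.7 and 10.7 CPM in wild type libraries and at 0 and 0.0213 CPM in those of clone 2. The 2 clone 2 libraries held 1 count together against 1209 in wild type, a ratio of 893 (exact 95% interval 160 to 3.53e+04, which like the other intervals here covers counting error only). In clone 1 it was at 15.6, 15.5 and 14.3 CPM. SLC17A9 (ENSG00000101194, chromosome 20, 62952647 to 62969585), which loads ATP into secretory vesicles, went from 19.4, 18.9 and 23 CPM to 0.124 and 0.106 CPM, from 2425 counts to 10 (ratio 179, interval 97.2 to 374). In clone 1 it stood at 31.9, 30.4 and 36.2 CPM. For both genes every clone 1 library lay above every wild type library, while clone 2 had next to nothing. Over all features, both clone 2 libraries lay above all 3 wild type libraries in 23.5% and below them in 21.5%. These shares are the background for separations of clone 2 from wild type, and the share for clone 1 was not counted.

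The tested genes next to SERPINB1 and SLC17A9 moved little. WRNIP1 and SERPINB6, on either side of SERPINB1, had log2 fold changes of -0.01 and -0.24, and GID8 and YTHDF1, around SLC17A9, -0.13 and 0.02. Of these, SERPINB6 alone passed the test (adjusted p = 0.0283).

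The drug efflux pump ABCB1 (ENSG00000085563, chromosome 7, 87503633 to 87713323), also called P-glycoprotein, fell from 23.8, 22.3 and 23.2 CPM to 0.941 and 1.04 CPM (log2 fold change -4.53, SE 0.13, adjusted p = 7.69e-11). Clone 1 was in between at 7.76, 9.01 and 8.02 CPM, and the clones differed (clone 2 minus clone 1 -3.06, adjusted p = 5.8e-09). RUNDC3B, whose annotation overlaps that of ABCB1, went from 6.86, 6.19 and 7.01 CPM to 1.68 and 1.62 CPM (log2 fold change -2.02, adjusted p = 5.22e-07). Its reads could not be separated from those of ABCB1 without the strand setting, so its value is uncertain. Among 25 tested ABC transporters 3 fell, ABCB1, ABCA3 (-0.76) and the organic anion exporter ABCC4 (-0.31), and 5 rose (2 rose without clone 2 replicate 1), with a median log2 fold change of 0.07.

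The adhesion proteins SLITRK3 and PCDH17 were also among the 12 strongest falls of genes at that level. SLITRK3, a postsynaptic adhesion protein, went from 8.57, 7.05 and 7.15 CPM to 0.47 and 0.34 CPM (log2 fold change -4.23, adjusted p = 2.52e-08). PCDH17, a protocadherin, went from 6.17, 6.16 and 6.26 CPM to 0.446 and 0.489 CPM (log2 fold change -3.72, adjusted p = 6.43e-08), and the adhesion receptor NCAM2 from 1.31, 1.23 and 0.994 CPM to 0.0743 and 0.0425 CPM, or 139 counts to 5 (ratio 20.5, interval 8.59 to 64.2). All 3 were called lower in clone 2 than in clone 1 as well. The vesicle motor MYO5C dropped from 9.07, 8.28 and 8.29 CPM to 0.47 and 0.638 CPM (log2 fold change -3.93, adjusted p = 7.61e-09), and the membrane proteins TMEM200A (-3.04) and TMEFF2 (-2.62) and the G protein subunit GNG11 (-2.57) fell as well. Of 25 tested cadherins and protocadherins 7 fell and 4 rose (2 rose without clone 2 replicate 1), with a median of -0.03.

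Retinoic acid is made by ALDH1A2 (ENSG00000128918, chromosome 15, 57953424 to 58497866), whose RNA dropped from 53, 48.5 and 50.9 CPM to 0.569 and 0.595 CPM (log2 fold change -6.44, SE 0.155, adjusted p = 1.32e-11). It was lower still in clone 1, at 0.121, 0.144 and 0.0247 CPM, and the clones differed (adjusted p = 0.00103). STRA6, the retinol uptake receptor, rose from 2.14, 2.28 and 2.16 CPM to 12.1 and 12.2 CPM (log2 fold change 2.47, adjusted p = 8.12e-09). Among 17 tested genes of retinoic acid synthesis and response 4 rose and 3 fell (1 rose without wild type replicate 1), with a median of 0.05.

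The receptor tyrosine kinase PDGFRA (ENSG00000134853, chromosome 4, 54229097 to 54298247), which binds platelet-derived growth factors, had the largest rise of the 12 genes named for their rise. It went from 0.831, 0.97 and 1.02 CPM to 37.9 and 40.4 CPM (log2 fold change 5.38, SE 0.115, adjusted p = 8.23e-12). In clone 1 it was at 1.51, 1.7 and 1.55 CPM, and the clones differed (clone 2 minus clone 1 4.61, adjusted p = 1.14e-11). The ligand gene PDGFA rose from 1.8, 1.37 and 1.72 CPM to 4.18 and 3.55 CPM (log2 fold change 1.23, adjusted p = 0.000336). On the same chromosome the next tested gene is KIT, the receptor for stem cell factor, and it moved the other way, from 12.2, 12.2 and 13.8 CPM to 5.79 and 5.8 CPM (log2 fold change -1.13, adjusted p = 1.18e-05). On the other side GSX2, a homeobox gene, had 2 counts in wild type and 29 in clone 2 (ratio 19.6, interval 4.97 to 170).

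Other receptor tyrosine kinases split. MET, the receptor for hepatocyte growth factor, fell from 42.6, 34.3 and 39.5 CPM to 18.7 and 16 CPM (log2 fold change -1.16, adjusted p = 7.32e-05). Of 32 tested receptors 5 rose (PDGFRA, FGFR1, FGFR2, RET and AXL) and 4 fell (KIT, MET, FLT3, FLT4), with a median of 0.06. Without wild type replicate 1 the counts were 2 and 3. The calls of AXL (adjusted p = 0.0344) and FLT3 (adjusted p = 0.0166) were lost without either clone 2 library, among other alternatives, with adjusted p-values up to 0.167 and 0.125.

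Of 31 tested genes of ERK feedback and the immediate early response 12 rose, 0 fell and 19 did not pass the test, against rises of 6.43% and falls of 4.83% of all genes, with a median of 0.30. With clone 2 replicate 1 left out 8 rose, and with a GC correction 12 rose. CCND1, the cyclin of early cell cycle entry, went from 2.99, 2.17 and 2.89 CPM to 13.3 and 11.9 CPM (log2 fold change 2.22, adjusted p = 1.78e-07) and was higher than in clone 1 (clone 2 minus clone 1 1.49, adjusted p = 1.05e-05). JUN, a subunit of the transcription factor AP-1, went from 2.52, 2.71 and 2.01 CPM to 7.72 and 9.1 CPM (log2 fold change 1.81, adjusted p = 2.41e-06). The phosphatases that switch off ERK rose as well, DUSP6 from 0.261, 0.171 and 0.339 CPM to 0.916 and 0.85 CPM and DUSP4 from 0.902, 1.2 and 1.14 CPM to 2.3 and 2.42 CPM. SPRY4, an inhibitor of receptor tyrosine kinase signalling, had 2 counts in wild type and 30 in clone 2 (ratio 20.3, interval 5.15 to 175). In clone 1 the log2 fold changes of CCND1, JUN, DUSP6 and DUSP4 were 0.73, 1.40, 0.47 and 0.66, with the same wild type libraries as controls.

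BMP7 (ENSG00000101144, chromosome 20, 57168748 to 57266629), a secreted bone morphogenetic protein, rose from 3.78, 3.42 and 3.64 CPM to 55.9 and 49.9 CPM (log2 fold change 3.87, SE 0.0876, adjusted p = 8.55e-12), while clone 1 reached 6.89, 7 and 6.96 CPM (log2 fold change 0.94, adjusted p = 1.09e-05). The clones differed (clone 2 minus clone 1 2.93, adjusted p = 5.57e-11). BMP2, a ligand of the same family, fell from 7.53, 6.14 and 6.04 CPM to 2.48 and 1.91 CPM (log2 fold change -1.59, adjusted p = 5.58e-05). The target genes ID1, ID2 and ID3, inhibitors of basic helix-loop-helix factors, rose slightly, with log2 fold changes of 0.39, 0.42 and 0.27, and the BMP antagonist NOG by 0.64. Of 42 tested BMP and TGF-beta genes 10 rose and 5 fell, with a median of 0.03, and 5 and 1 passed without wild type replicate 1. The neighbours of BMP7, TFAP2C and RAE1, had log2 fold changes of 0.12 and -0.02 and did not pass the test.

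Matrix and adhesion genes changed in both directions. THBS1, which encodes thrombospondin-1, went from 0.736, 1.11 and 1.02 CPM to 13.3 and 19.8 CPM (log2 fold change 4.13, SE 0.32, adjusted p = 0.000129), and its relative THBS2 from 78, 87.2 and 88.2 CPM to 25.8 and 29.8 CPM (log2 fold change -1.60, SE 0.0973, adjusted p = 3.34e-07). THBS1 was high in clone 1 too (7.76, 13.4 and 13.1 CPM), whereas THBS2 stayed near the wild type level there (74.9, 89.7 and 89.5 CPM). The proteoglycans of the SPOCK family split as well. SPOCK1 rose from 0.902, 0.999 and 0.97 CPM to 4.16 and 6.48 CPM. SPOCK3 fell from 4.04, 3.48 and 4.61 CPM to 0.173 and 0.0425 CPM, and for SPOCK3 the clones did not differ in the test (adjusted p = 0.252). VCAM1, an adhesion receptor for integrins, went from 0.166, 0.257 and 0.0485 CPM to 5.1 and 7.46 CPM, from 18 counts to 557 (ratio 41.9, interval 26.3 to 71.2). In clone 1 VCAM1 was high too, with 305 counts (ratio to wild type 15.5, interval 9.67 to 26.6). SERPINF1, the secreted factor PEDF, rose from 11.6, 11.7 and 13.6 CPM to 90.3 and 83.1 CPM (log2 fold change 2.81, adjusted p = 1.52e-10). Of 31 other matrix genes 8 rose and 6 fell (median 0.11), of 24 collagens and laminins 6 rose and 3 fell (median 0.06), and of 31 integrins and immunoglobulin receptors 8 rose and 4 fell (median 0.11). Leaving out 1 library lowered the rises to 4 (wild type replicate 2), 3 (clone 2 replicate 1) and 5 (clone 2 replicate 2).

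Of the dystrophin-associated complex, which ties the cytoskeleton to laminin, SGCD and DTNA rose and DMD, SNTG2 and LAMA2 fell. SGCD (delta-sarcoglycan) went from 1.09, 1.28 and 1.38 CPM to 14.4 and 17.5 CPM (log2 fold change 3.67, adjusted p = 4.62e-09) and DTNA (alpha-dystrobrevin) from 0.736, 0.942 and 0.8 CPM to 4.56 and 5.72 CPM (log2 fold change 2.64, adjusted p = 3.34e-07). Dystrophin itself, DMD, went from 16.3, 16.3 and 18 CPM to 9.46 and 9.71 CPM (log2 fold change -0.81, adjusted p = 0.00011). No others of the 13 tested members were called, and of these 5 SGCD alone differed from clone 1 in the test (clone 2 minus clone 1 2.12, adjusted p = 7.01e-07).

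Keratins and epithelial genes rose more often than they fell, and 47.6% were called, beside 11.3% of all genes. Of 21 tested members 9 rose and 1 fell, with a median of 0.44, and 4 rose without clone 2 replicate 1. KRT8, a keratin of simple epithelia, went from 4.37, 3.85 and 4.07 CPM to 15.7 and 13.1 CPM (log2 fold change 1.81, adjusted p = 2.74e-07), and its partner KRT18 from 37.5, 35.8 and 41.2 CPM to 58.6 and 54.7 CPM (log2 fold change 0.57, adjusted p = 0.000502). The tight junction protein CLDN1 was the member that fell, from 23.6, 22.3 and 23.9 CPM to 3.86 and 4.19 CPM (log2 fold change -2.53, adjusted p = 1.55e-09). Of 12 fibroblast markers 5 were tested and 3 rose, COL1A1 (0.97), PDGFRA and MMP2 (18 counts in wild type, 60 in clone 2). THY1, which also lies outside the naming rule, went the other way without a call (log2 fold change -1.09). It had 18, 9 and 14 counts in wild type and 8 and 6 in clone 2. With a GC correction 3 fibroblast markers rose and 1 fell. The defining markers COL1A2, DCN and LUM had no count in any library. The summed fibroblast marker level, per unscaled library size, was 258 to 274 CPM in wild type and 294 and 297 in clone 2. Within that sum FBLN1 was at 242 to 259 CPM and 231 and 226 CPM, and PDGFRA at 0.828 to 0.997 CPM and 38.2 and 40.7 CPM, so that FBLN1 was lower in clone 2 and PDGFRA higher. Summed neuronal markers were 158 to 174 CPM in wild type and 242 and 247 in clone 2, with 7 of 14 under 10 counts throughout and TUBB3 (0.44) and ENO2 (0.66) among the 3 that rose, while SYT1, a calcium sensor of synaptic vesicles, fell (-1.41, adjusted p = 0.00037). The part of other cell types in these levels was not tested, and in bulk RNA more cells of a kind and more RNA per cell cannot be told apart.

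**Figure D1:**
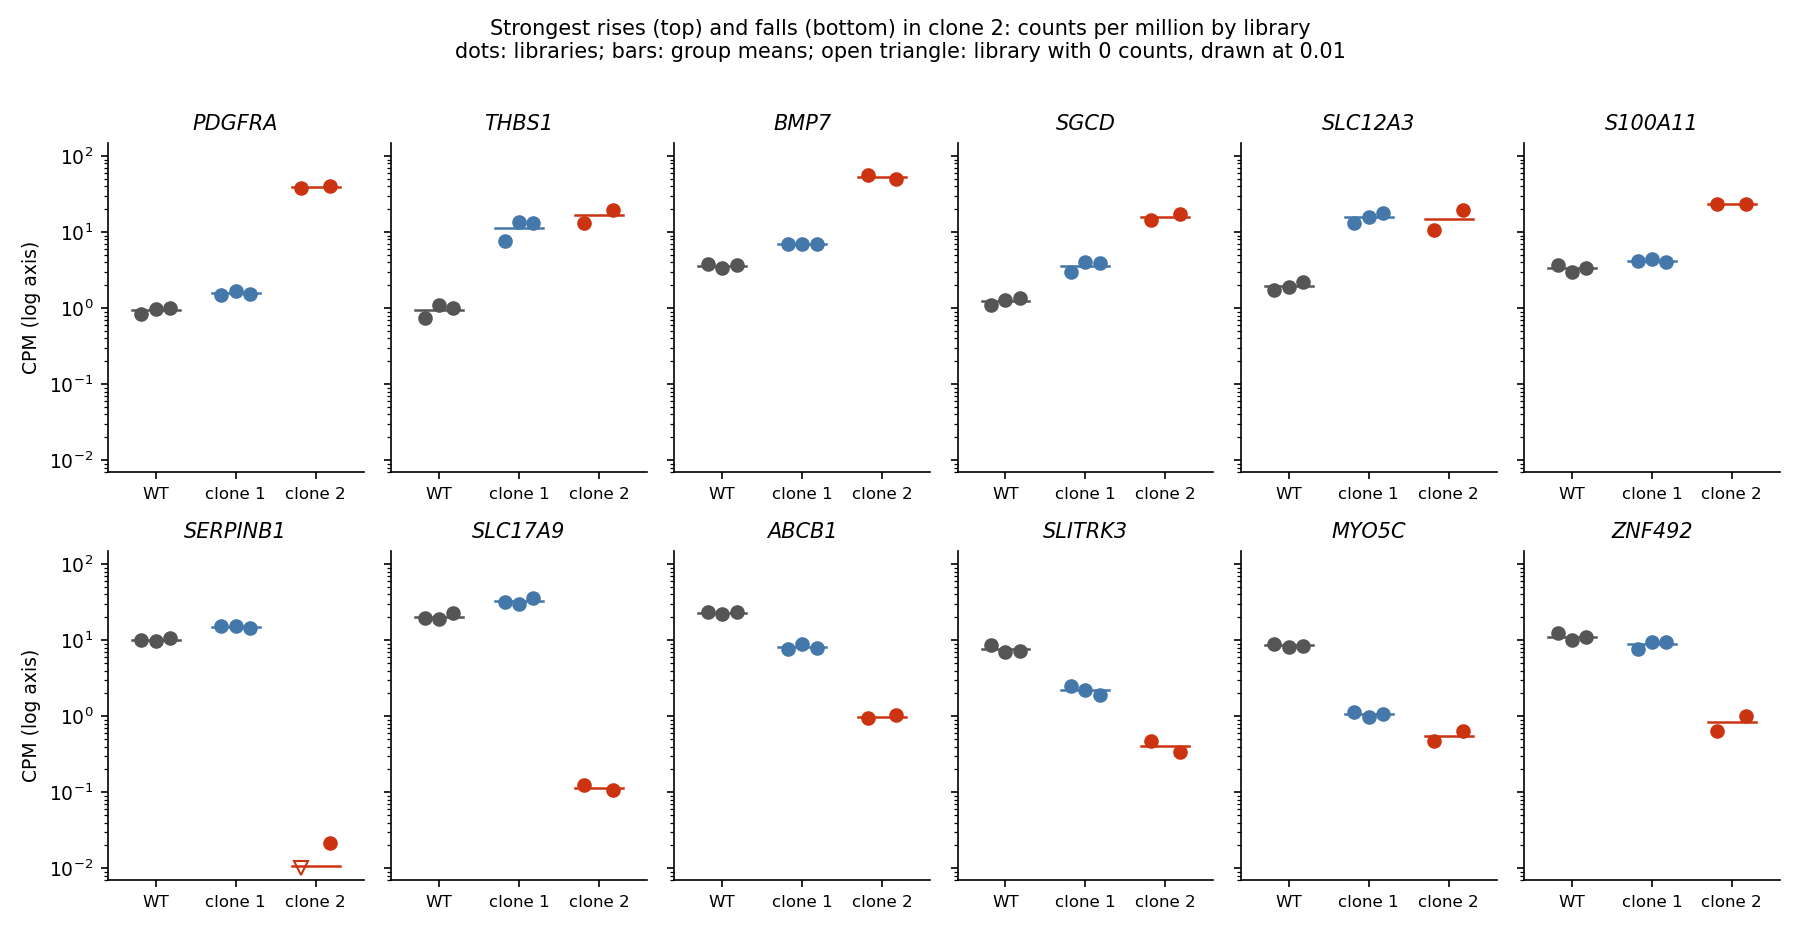
CPM (log axis) in each of the 8 paired-end libraries for the 6 genes that rose most (top) and the 6 that fell most (bottom) in clone 2 under the naming rule; dots are libraries, bars are group means, and the open triangle marks the clone 2 library with 0 SERPINB1 counts, drawn at 0.01. PDGFRA, BMP7 and S100A11 are highest in clone 2, and their clone 1 libraries also lie above all wild type libraries. THBS1 and SLC12A3 are high in both clones, and SERPINB1 and SLC17A9 are low in clone 2 alone.

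The plot of CPM by library also holds the sodium-chloride cotransporter SLC12A3, which went from 1.73, 1.91 and 2.21 CPM to 10.7 and 19.4 CPM (log2 fold change 2.95, adjusted p = 0.000278). Its clone 1 libraries were at 13.2, 16 and 17.7 CPM. Other genes among the 12 strongest rises with a log2 CPM averaging 1 or more over the libraries and no overlap were SNCAIP, a partner of alpha-synuclein (2.80), the transcription factor GLIS3 (2.77), the long non-coding RNA LINC01788 (2.74) and the cytidine deaminase APOBEC3C (2.70).

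Genes of antiviral defence and antigen presentation were counted by list. Called were 15% of tested interferon-stimulated genes and 36.4% of tested MHC class I genes, beside 11.3% of all genes. Of 40 tested interferon-stimulated genes 4 rose and 2 fell, with a median of 0.04, and 0 fell without clone 2 replicate 1. HERC5, a ligase for the modifier ISG15, was among those that rose (10.1, 9.45 and 10.8 CPM to 21.3 and 21.1 CPM, adjusted p = 1.17e-05). APOBEC3C, which deaminates cytidine in viral DNA, went from 3.02, 2.83 and 3.56 CPM to 19.6 and 21.4 CPM, and 3 of 5 tested APOBEC3 genes rose (2 without wild type replicate 1). Of 22 genes of MHC class I presentation 7 rose and 1 fell, with a median of 0.23, and 2 rose without clone 2 replicate 1. HLA-B went from 166, 150 and 164 CPM to 224 and 202 CPM (log2 fold change 0.41, adjusted p = 0.00141). Among 18 NF-kB genes 5 rose and 0 fell, with a median of 0.13, and 5 rose with each library left out in turn. They were VCAM1, RELB (0.92), NFKBIA (0.58), NFKB2 (0.37) and the inhibitor TNFAIP3 (0.89).

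The DNA sensor CGAS went from 1.14, 0.656 and 1.24 CPM to 0.099 and 0.276 CPM, 122 counts to 17 (ratio 5.3, interval 3.18 to 9.4), with an adjusted p of 0.00829. Without clone 2 replicate 1 its adjusted p was 0.0857. Its partner STING1 rose from 0.427, 0.428 and 0.388 CPM to 1.51 and 1.23 CPM (log2 fold change 1.72, adjusted p = 0.000862). For STING1 the clones did not differ in the test (clone 2 minus clone 1 0.16, adjusted p = 0.914). The kinase IKBKE, which acts below such sensors, rose from 0.973, 0.856 and 0.679 CPM to 2.05 and 1.98 CPM (log2 fold change 1.27, adjusted p = 0.00221) and did not pass the test in clone 1 (log2 fold change -0.26, adjusted p = 0.479). Of 22 tested sensing genes 3 rose and 3 fell, with a median of -0.01, and 0 fell without clone 2 replicate 1.

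Imprinted genes are normally read from 1 parental copy. Of 17 tested members 7 rose and 0 fell, with a median of 0.25 (5 rose without clone 2 replicate 1). IGF2, a fetal growth factor, went from 0.309, 0.342 and 0.364 CPM to 2.23 and 1.79 CPM (log2 fold change 2.56, adjusted p = 8.34e-06), with clone 1 at 1.54, 1.77 and 1.75 CPM. DLK1, a growth regulator of the Notch ligand type, went from 1.02, 0.828 and 0.752 CPM to 2.7 and 2.49 CPM (log2 fold change 1.57, adjusted p = 0.000221) and did not pass in clone 1 (log2 fold change 0.43, adjusted p = 0.175). PEG10, a gene of retroviral origin, was the most abundant, at 2353, 2661 and 2644 CPM against 3930 and 4865 CPM (log2 fold change 0.78, adjusted p = 0.00058). L3MBTL1, a chromatin-binding protein, was also called higher than in clone 1 (adjusted p = 0.0123), a call that was lost without clone 2 replicate 1 (adjusted p = 0.204) and without clone 1 replicate 2 (0.0668).

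Of 12 tested pluripotency genes ESRG rose and 4 fell (2 without wild type replicate 1), with a median of 0.08. ESRG, a primate RNA with sequence of the HERV-H retrovirus, went from 3.09, 2.74 and 2.93 CPM to 17.9 and 17.9 CPM (log2 fold change 2.61, adjusted p = 3.77e-09) and was higher than in clone 1 (clone 2 minus clone 1 1.59, adjusted p = 6.33e-07). TERT, the catalytic subunit of telomerase, went from 19.6, 18.1 and 19.8 CPM to 8.94 and 7.84 CPM (log2 fold change -1.19, adjusted p = 1.35e-05) and was lower than in clone 1 (clone 2 minus clone 1 -0.76, adjusted p = 0.00221). POU5F1, the stem cell factor OCT4 that HAP1 expresses, stood at 535, 509 and 560 CPM against 429 and 390 CPM (log2 fold change -0.38, adjusted p = 0.00164).

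Of 27 tested HOX genes 1 rose and 2 fell, with a median of -0.08 (1 fell without wild type replicate 1). The share called was 11.1%, beside 11.3% of all genes. HOXC11, the called member with the largest fold, went from 1.09, 1.34 and 1.89 CPM to 0.0495 and 0.0213 CPM, 171 counts to 3 (ratio 42.1, interval 14.2 to 206), while clone 1 stood at 2.36, 2.27 and 2.32 CPM. The antisense RNA HOTAIR, which overlaps it, had 31 counts in wild type and 1 in clone 2 (ratio 22.9, interval 3.82 to 933). HOXC13-AS had 2 counts in wild type and 40 in clone 2 (ratio 27.1, interval 7.02 to 231). The neighbours HOXC13, HOXC10 and HOXC6 had log2 fold changes of 0.01, 0.00 and 0.18 and did not pass. HOXC11 and HOTAIR overlap on opposite strands, so their reads could not be told apart without the strand setting.

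Some genes of cell division and splicing fell slightly. Of 35 tested mitosis genes 0 rose and 9 fell, with a median of -0.12 and a median GC content of 43%, and 3 fell with a GC correction and 0 without clone 2 replicate 1. Of 60 splicing regulators 1 rose and 11 fell, with a median of -0.12 and a median GC content of 42.5%, and 5 fell with a GC correction and 4 without wild type replicate 1. The 41 DNA replication genes had 0 rises and 6 falls, and 0 falls without clone 2 replicate 1. CELF2, a splicing regulator of muscle and nerve, went from 28.5, 29.7 and 32 CPM to 18.4 and 19 CPM (log2 fold change -0.68, adjusted p = 3.97e-05) and was higher in clone 1 at 35.9, 39.6 and 38.6 CPM (log2 fold change 0.34, adjusted p = 0.00309). MBNL3 went from 86.3, 83.6 and 81.7 CPM to 52.8 and 58.1 CPM (log2 fold change -0.60, adjusted p = 0.00011), with a fall in clone 1 too (log2 fold change -0.45, adjusted p = 0.000393). Other alternatives left as many falls or more. With a GC correction 7 DNA replication genes fell. With only the wild type and clone 2 libraries fitted, falls were 12 for mitosis, 24 for splicing and 13 for DNA replication. The values of GC content stand beside these counts and their part in them was not tested.

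Metabolic and stress lists gave small changes. Of 34 ATF4 targets and amino acid transport genes 10 rose and 1 fell with a median of 0.07, and 2 rose without clone 2 replicate 1. The called rises were between 0.22 (SLC3A2) and 0.62 (CHAC1, a call lost in 9 of 18 alternatives with an adjusted p of up to 0.593) on the log2 scale, and the fall was the arginine and lysine transporter SLC7A3, described below. Of 32 cholesterol and fatty acid genes 7 rose and 1 fell, with a median of 0.11, and 0 rose without clone 2 replicate 1. Glycolysis (3 rose and 1 fell of 24), p53 targets (1 and 2 of 24), chaperones of the endoplasmic reticulum (1 and 1 of 28) and Notch genes (1 and 0 of 23) had medians between -0.01 and 0.03, and their shares of called genes lay between 4.35% and 16.7% beside 11.3% of all genes. Of 37 WNT genes 7 rose and 4 fell with a median of 0.11, and of 17 YAP and TEAD targets 7 and 1 with 0.07. Of 16 mesenchyme-type genes 4 rose and 1 fell with 0.04, and of 38 lineage factors of the SOX, GATA and TBX kind 3 and 7 with -0.02. The shares called in these lists were 29.7%, 47.1%, 31.2% and 26.3%, beside 11.3% of all genes. Among ATF4 targets and cholesterol genes they were 32.4% and 25%. Rises without wild type replicate 1 were 4 for WNT genes, 2 for YAP and TEAD targets and 1 for lineage factors, and 0 WNT genes fell. Falls of lineage factors were 3 without clone 2 replicate 1. Without wild type replicate 1 glycolysis had 1 rise, p53 targets and chaperones of the endoplasmic reticulum had no call, and clock genes had 1 fall. The 20 clock genes had 0 rises and 3 falls, 25 factors of RNA silencing and translation 0 and 1, 15 BCL2 family genes 3 and 0, and 23 PDGF ligands and downstream genes 3 and 1 (1 rise without clone 2 replicate 2).

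**Figure D2:**
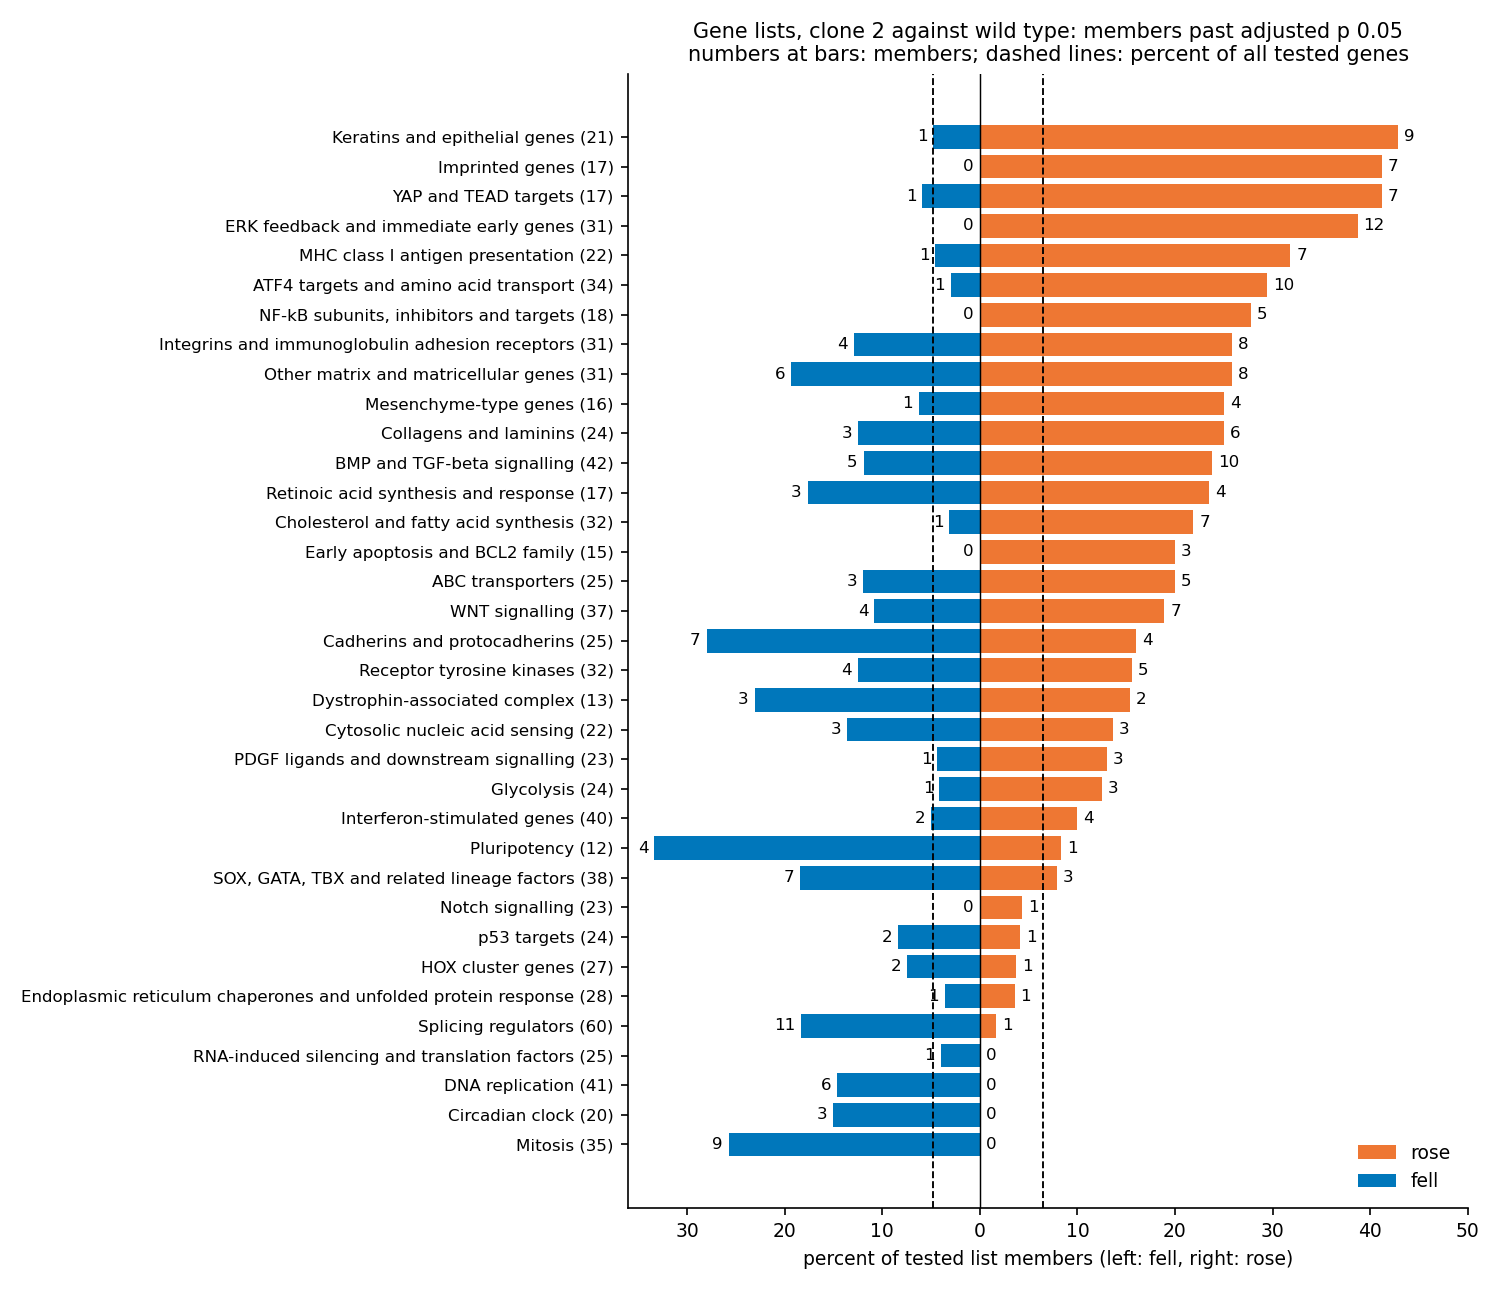
Percent of the tested members of each gene list with at least 10 tested members that rose (right) or fell (left) in clone 2 against wild type at an adjusted p below 0.05; the number tested is in brackets, the numbers at the bars are members, and the dashed lines mark 6.43% and 4.83%, the shares of all tested genes. Keratins and epithelial genes have 9 rises among 21, ERK feedback and immediate early genes 12 among 31, and mitosis genes 9 falls among 35.

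What sets clone 2 apart was taken from a second contrast of the same fit. Clone 2 and clone 1 differed in 434 features (2.09%), 228 higher (1.1%) and 206 lower (0.993%) in clone 2. Clone 1 against wild type had 16% of features called. A change is called particular to clone 2 when clone 2 differed from wild type and from clone 1 in the same direction, and both contrasts use the same 2 clone 2 libraries. There were 286 such features (1.38%), 0.752% higher and 0.627% lower. They comprised 153 genes higher in clone 2, 130 genes lower and 3 repeats higher. Of the 153, clone 1 was not called in 87, rose less in 53 and fell in 13, and of the 130 it was not called in 67, fell less in 39 and rose in 24. By 2-fold or more against both groups, 73 genes were higher and 63 lower. With the GC correction 278 of the 286 kept both calls, against wild type and against clone 1, in the same direction. Without clone 2 replicate 2 the particular features were 90 higher and 69 lower, and without clone 2 replicate 1 they were 108 and 84.

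Among genes lower in clone 2 and not called in clone 1, MYOM1 (ENSG00000101605, chromosome 18, 3066807 to 3220108), a protein of the muscle M band, went from 18, 16.1 and 17 CPM to 1.24 and 1.64 CPM (log2 fold change -3.55, SE 0.127, adjusted p = 7.75e-10). Clone 1 kept it at 17.5, 18.4 and 18.2 CPM. The zinc finger gene ZNF492 (ENSG00000229676, chromosome 19, 22634324 to 22667670) went from 12.6, 9.99 and 11 CPM to 0.644 and 1.02 CPM (log2 fold change -3.73, SE 0.198, adjusted p = 3.91e-08), and clone 1 was at 7.7, 9.53 and 9.58 CPM. Of the tested neighbours of the same zinc finger family, the pseudogene ZNF849P went from 1.64, 1.46 and 1.77 CPM to 0.248 and 0.085 CPM (log2 fold change -3.31, adjusted p = 7.92e-05) and ZNF730 fell from 2.28, 3.34 and 2.72 CPM to 1.04 and 1.06 CPM (log2 fold change -1.39, adjusted p = 0.00199), whereas ZNF98 (-1.92, adjusted p = 0.0687), ZNF724 and ZNF100 (-0.12 each) did not pass. Genes of this family resemble each other, so reads may have been shared among them.

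Smaller falls without a call in clone 1 followed. CNTN1 (contactin-1, an axonal adhesion protein) fell from 22.5, 20.3 and 19.8 CPM to 5.64 and 5.59 CPM and GALNT13, which starts O-linked glycans, from 14.9, 13 and 13.1 CPM to 3.39 and 2.68 CPM. The scaffold MAGI2 went from 6.01, 5.88 and 6.16 CPM to 1.91 and 2.02 CPM and the matrix protein ADAMTSL4 from 16.1, 13.2 and 15.2 CPM to 5.27 and 4.74 CPM. In clone 1 these 4 genes had log2 fold changes of -0.16, -0.10, 0.29 and 0.07, none called, against -1.89, -2.18, -1.61 and -1.57 in clone 2. The ephrin receptor EPHB6 (-1.15), the calcium release channel RYR2 (-1.20) and the presynaptic protein RIMS2 (-1.41) fell too. For RIMS2 the difference from clone 1 had an adjusted p of 0.00618, and 0.103 without clone 2 replicate 2. For the adhesion receptor ADGRE2 that difference was lost with a replicate block (adjusted p = 0.0516) and with only the compared libraries fitted (0.0569). MLKL, which executes necroptosis, and ADGRE2 changed least (-0.55 and -0.73). Their calls against wild type were lost without clone 2 replicate 1 (adjusted p = 0.0807 and 0.0642), clone 2 replicate 2 (0.154 and 0.125) or wild type replicate 2 (0.0912 and 0.0538), and that of ADGRE2 also without wild type replicate 1 (0.0527).

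Among genes higher in clone 2 and not called in clone 1, S100A11 (ENSG00000163191, chromosome 1, 152032506 to 152047907), a calcium-binding protein, had the largest fold of those with a log2 CPM averaging 1 or more. Wild type stood at 3.7, 3 and 3.35 CPM and clone 2 at 23.4 and 23.6 CPM (log2 fold change 2.81, SE 0.108, adjusted p = 1.37e-09). Clone 1, at 4.14, 4.49 and 4.07 CPM, just missed the threshold (adjusted p = 0.0511). PPP2R2B, a regulatory subunit of protein phosphatase 2A, went from 2.4, 2.37 and 2.74 CPM to 11.1 and 13.5 CPM (log2 fold change 2.30, adjusted p = 1.79e-07). The adhesion receptor ADGRL3 went from 5.6, 5.88 and 5.99 CPM to 13.1 and 12.7 CPM, the secreted SCUBE2 from 4.04, 4.85 and 4.53 CPM to 9.43 and 8.65 CPM, and CAPN6, a calpain without protease activity, from 6.81, 6.19 and 7.76 CPM to 15.4 and 15.6 CPM. Smaller rises were those of ARHGAP44 (0.99), PCDHB13 (1.18), the kinesin KIF17 (1.39), TNFAIP3 (0.89) and the unnamed transcript ENSG00000230707 (0.74). Without clone 2 replicate 2 the differences from clone 1 of PCDHB13, KIF17 and TNFAIP3 had adjusted p-values of 0.0633, 0.182 and 0.108, and KIF17 also missed without clone 2 replicate 1 (0.137) and without clone 1 replicates 2 (0.0525) or 3 (0.0919). The insulin receptor substrate IRS1 (0.77) lost its call against wild type without clone 2 replicate 1 (adjusted p = 0.0619) or 2 (0.0595). The GTPase RAC3 (0.57) lost it without clone 2 replicate 1, any wild type library (adjusted p up to 0.12) or clone 1 replicate 1 (0.0853). The differences of these genes from clone 1 were not stable either. That of IRS1 had an adjusted p of 0.0681 without clone 1 replicate 2, and that of RAC3 0.0977 without clone 1 replicate 1.

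**Figure D3:**
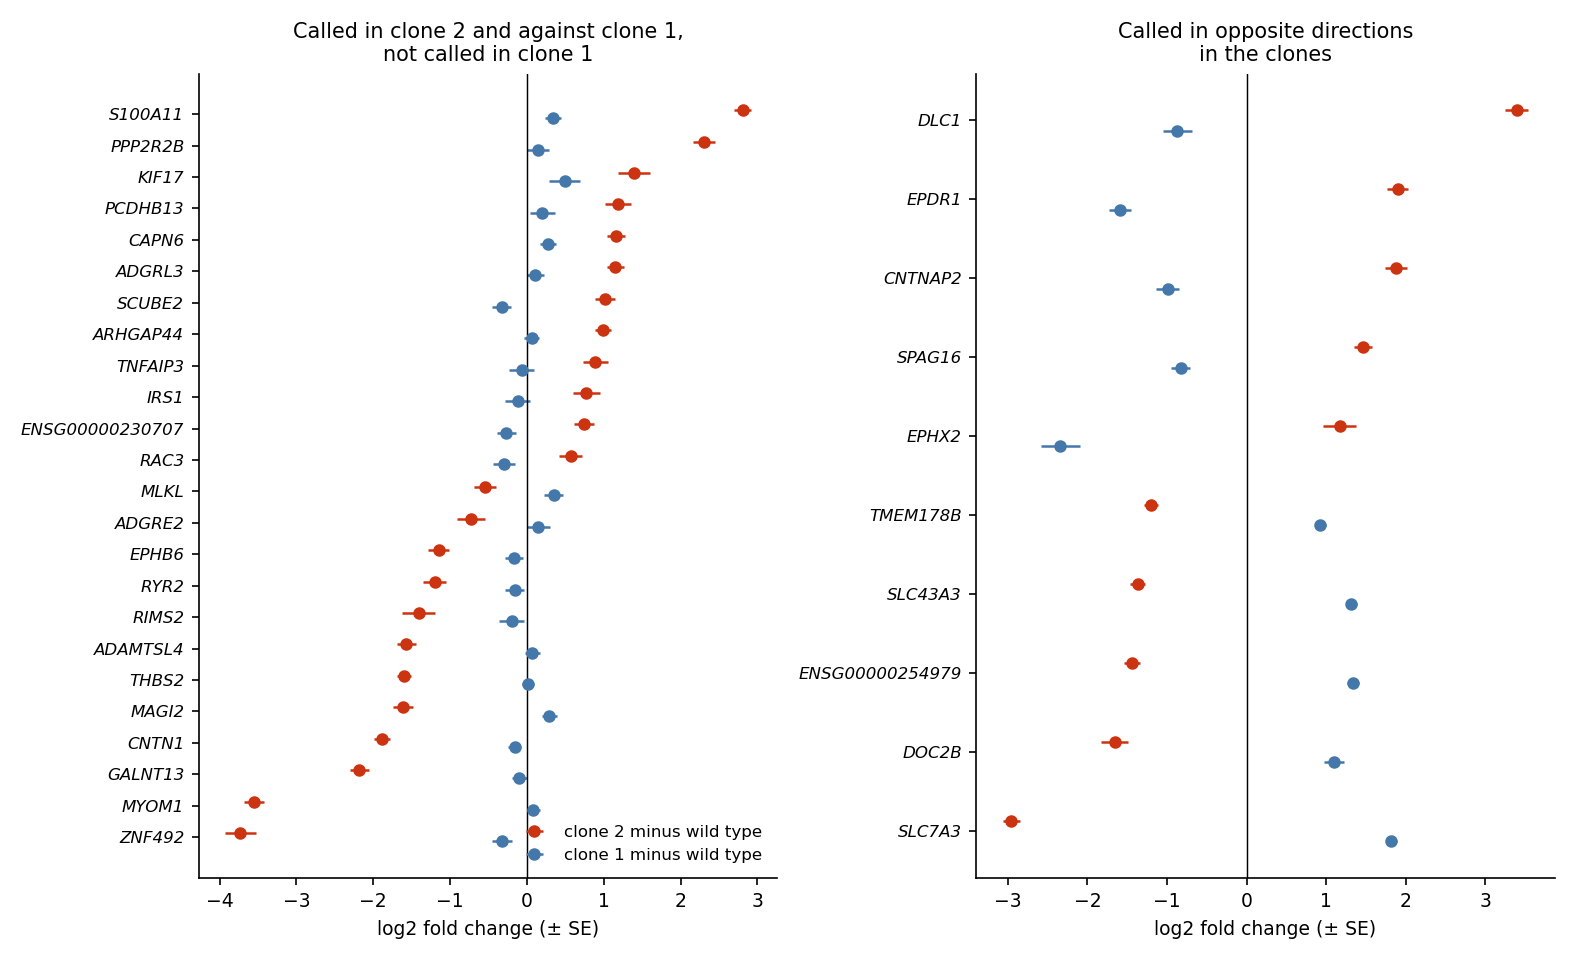
Log2 fold changes against wild type with their SE for clone 2 (red) and clone 1 (blue), for the 24 named genes called in clone 2 and against clone 1 but not in clone 1 (left) and 10 of the 12 named genes called in opposite directions (right); both clones share the 3 wild type libraries. MYOM1 and ZNF492 lie at -3.55 and -3.73 in clone 2 and at 0.08 and -0.32 in clone 1, and SLC7A3 lies at -2.96 and 1.82.

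Genes called in opposite directions in the clones included several with large shifts. DLC1 (ENSG00000164741, chromosome 8, 13083361 to 13604610), known as a tumour suppressor, went from 1.04, 1.31 and 1.43 CPM to 12.7 and 13.9 CPM (log2 fold change 3.40, SE 0.146, adjusted p = 3.78e-09). In clone 1 it dropped to 0.634, 0.686 and 0.74 CPM (log2 fold change -0.87, adjusted p = 0.00618). Its tested neighbour TRMT9B rose in clone 2 as well (0.309, 0.171 and 0.364 CPM to 2.92 and 3.21 CPM). EPDR1, a lysosomal glycoprotein, went from 4.54, 4.39 and 3.88 CPM to 16.6 and 15.2 CPM in clone 2 and to 1.72, 1.23 and 1.38 CPM in clone 1. CNTNAP2, an adhesion protein of axons, went from 8.05, 7.45 and 9.36 CPM to 25.1 and 35.9 CPM in clone 2 and to 4.2, 4.1 and 4.22 CPM in clone 1. The epoxide hydrolase EPHX2 (1.17 in clone 2, -2.34 in clone 1) and the axonemal gene SPAG16 (1.46 and -0.83) followed the same order. In each of these 5 genes every clone 2 library lay above every wild type library and every clone 1 library below. The genes were chosen by calls in these directions, and the share of all features with this order was not counted.

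SLC7A3 (ENSG00000165349, chromosome X, 70925582 to 70931125), a carrier of cationic amino acids, showed the reverse. It went from 12.9, 14.3 and 14.9 CPM to 1.81 and 1.81 CPM (log2 fold change -2.96, SE 0.108, adjusted p = 9.2e-10). In clone 1 it reached 48.2, 52.3 and 48.2 CPM (log2 fold change 1.82, adjusted p = 2.63e-09). Its tested neighbours DLG3 and RPS23P8 did not pass in clone 2 (0.10 and -0.38). DOC2B, a calcium sensor for vesicle fusion, went from 4.46, 4.05 and 4.66 CPM to 1.51 and 1.28 CPM in clone 2, while clone 1 reached 10.6, 8.05 and 9.87 CPM. The membrane protein TMEM178B fell from 16.8, 17.8 and 15.5 CPM to 6.96 and 7.52 CPM, with clone 1 at 31.8, 33 and 30.8 CPM. The nucleobase transporter SLC43A3 went from 18.4, 18 and 18.7 CPM to 7.4 and 6.8 CPM in clone 2 and to 49.5, 46.1 and 42 CPM in clone 1. The gene ENSG00000254979 overlaps SLC43A3 and changed alike (-1.44 and 1.34), so these values are uncertain as separate measurements.

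A further pair of genes of this kind had 0 counts in 1 clone. ALDH1L1 (ENSG00000144908, chromosome 3, 126103562 to 126197994), a folate enzyme, had 56 counts in wild type (0.57, 0.457 and 0.388 CPM), 128 in clone 1 (0.695, 1.17 and 0.987 CPM) and 0 in clone 2, where it was at least 13.8-fold lower than in wild type at a floor of 3 counts over the group (the exact 95% interval of the ratio starts at 10.8). Its neighbour KLF15 stood at -0.43 on the log2 scale in clone 2. GRAMD2B (ENSG00000155324, chromosome 5, 126360132 to 126496494), of a family of lipid transfer proteins, had 63 counts in wild type (0.641, 0.4 and 0.533 CPM), 100 in clone 2 (1.16 and 1.13 CPM) and 0 in clone 1, so that clone 2 was at least 49.2-fold higher than clone 1 at the same floor (interval from 39.3). Its call against wild type in clone 2 was weak (adjusted p = 0.0421) and was lost in 10 of 18 alternatives, among them each of those without a wild type or clone 2 library, with adjusted p-values up to 0.217.

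Changes along the chromosomes were mild. Median log2 fold changes per chromosome lay between -0.107 (chromosome 13) and 0.084 (chromosome 22), and the share of genes called between 7.71% (chromosome 19) and 16.6% (the X chromosome), beside 11.3% overall. There were 5 runs of at least 5 consecutive tested genes called in the same direction. The longest, 8 genes on chromosome 1 from 151982915 to 153634340, held S100 genes, a family of small, mostly calcium-binding proteins. They are consecutive among tested genes only: S100A11 ends at 152047907 and the next tested gene, S100A6, starts at 153534599. S100A6 went from 15.8, 16.2 and 18.2 CPM to 33.6 and 27.8 CPM in clone 2 (log2 fold change 0.87, adjusted p = 0.000107) and fell in clone 1 to 11.5, 9.38 and 10.6 CPM (log2 fold change -0.68, adjusted p = 0.000551). S100A16 had 11 counts in wild type and 79 in clone 2 (ratio 9.72, interval 5.15 to 20.3). S100A13 (0.68), S100A4 (0.90) and S100A10 (0.33) rose as well, and S100A2 had 15 and 38 counts. S100A11 and S100A6 were the members particular to clone 2. S100A13 overlaps the eighth gene of the run, ENSG00000271853 (0.75), so that pair is uncertain.

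**Figure D4:**
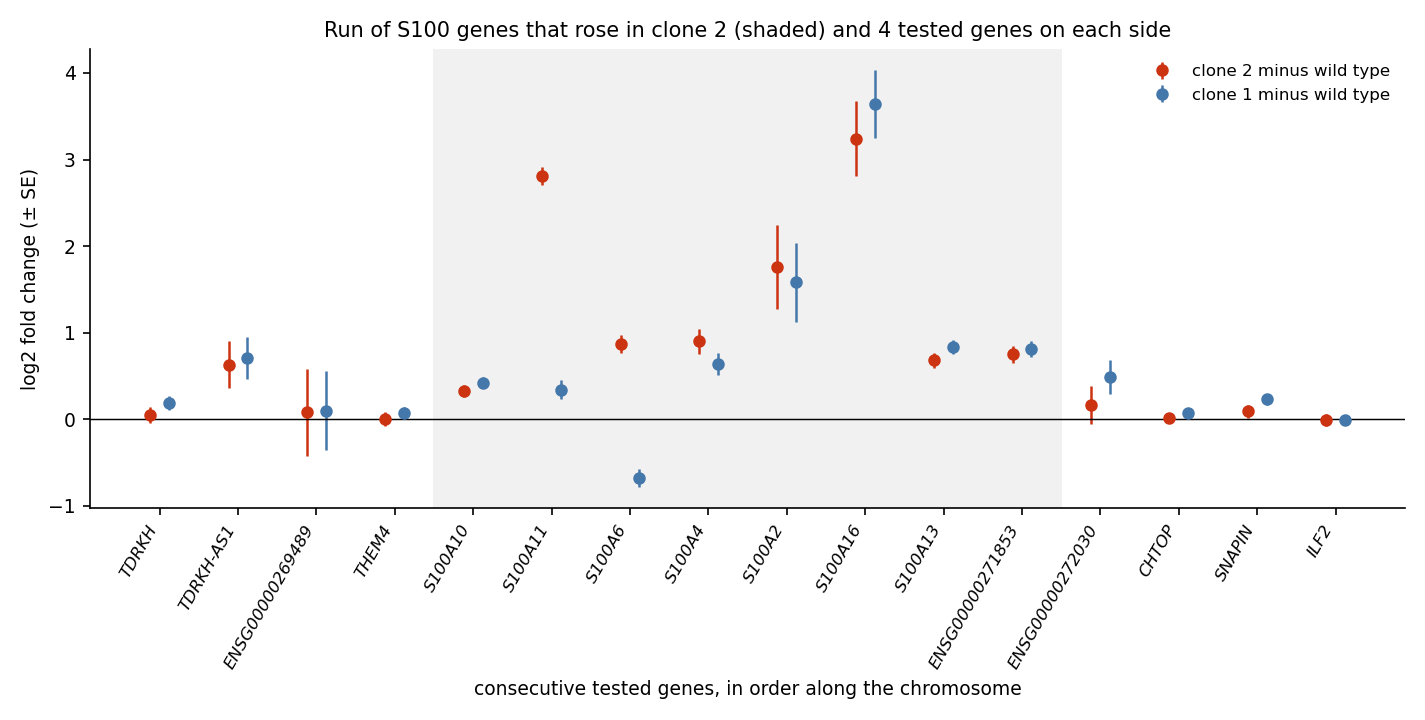
Log2 fold changes against wild type with their SE in clone 2 (red) and clone 1 (blue) for the 8 consecutive tested genes that rose in clone 2 (shaded) and 4 tested genes on each side, in order along chromosome 1. S100A11 is at 2.81 in clone 2 and 0.34 in clone 1, S100A6 at 0.87 and -0.68, and the other 6 members of the run were not particular to clone 2.

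A second rising run on chromosome 19 (55132794 to 55209506) held the troponin genes TNNT1 and TNNI3, ENSG00000267110, DNAAF3 and PTPRH. The annotation of ENSG00000267110 overlaps those of TNNI3 and DNAAF3, so their values are uncertain as separate measurements. TNNT1, the troponin T of slow muscle, went from 8.52, 7.02 and 8.8 CPM to 17.9 and 17.6 CPM (log2 fold change 1.13, adjusted p = 7.14e-06), with clone 1 at 13.7, 13.2 and 14.4 CPM. Falling runs were the 7 genes around ABCB1 on chromosome 7 (87196160 to 88226993), 5 genes with CDCA7L, a MYC-binding partner (-0.59), on the same chromosome (21428034 to 22727613), and 7 genes on chromosome 4 (174490177 to 177442503). In the last of these the neuronal membrane protein GPM6A went from 46.7, 46.4 and 48.7 CPM to 14.3 and 12.2 CPM (log2 fold change -1.83, adjusted p = 2.32e-08), with clone 1 at 16.8, 16 and 14 CPM. Apart from ABCB1, RUNDC3B, S100A11, S100A6 and the prostaglandin-degrading enzyme HPGD (-0.96), no member of the 5 runs was particular to clone 2.

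Few repeats changed. Reads of a subfamily are summed over its copies, and 1.69% of tested subfamilies rose and 0.188% fell, with a median log2 fold change of 0.06. MER83B, a long terminal repeat of the ERV1 class, was the strongest, from 0.902, 0.656 and 0.63 CPM to 4.13 and 4.53 CPM (log2 fold change 2.56, SE 0.291, adjusted p = 9.01e-05). Clone 1 stood at 0.725, 0.758 and 1.63 CPM, and the clones differed (clone 2 minus clone 1 2.07, adjusted p = 0.000972). HUERS-P3-int (0.49) and LTR9C (0.82) were also particular to clone 2. The call of LTR9C against wild type (adjusted p = 0.0425) was lost in 9 of 18 alternatives, among them those without each clone 2 library. Its call against clone 1 (adjusted p = 0.0387) was lost in 9 of 18 as well. HERVH-int, the internal part of the HERV-H retrovirus, went from 389, 375 and 395 CPM to 561 and 590 CPM (log2 fold change 0.57, adjusted p = 0.000112), and its promoter repeats LTR7 (0.43) and LTR7Y (0.78) rose with it, as in clone 1 (0.59, 0.39 and 1.17). HERVK13-int fell from 6.34, 7.65 and 7.64 CPM to 3.47 and 3.59 CPM (log2 fold change -1.03, adjusted p = 0.00143). The young LINE element L1HS did not pass (log2 fold change -0.01, adjusted p = 0.979). Of 270 tested ERV1 subfamilies other than HERV-H and LTR7, 10 rose and 1 fell, and of 19 HERV-H and LTR7 subfamilies 4 rose and 0 fell. Of 128 L1 and 51 Alu subfamilies none was called, with medians of 0.00 and 0.03.

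A separate pair of single-end libraries, 1 of wild type (44140706 counts) and 1 of an RBM4 knockout clone (41265510 counts), has no replicates and no test, and the labels do not say which clone it is. Its wild type library is not among those of the paired-end fit. Ratios used a prior count of 2, and features under 20 counts over both libraries were left out. Of the 74 features particular to clone 2 and at least 2-fold higher against both groups, 65 could be measured, and all 65 were higher in the single-end knockout library, 55 of them 2-fold or more (median log2 ratio 1.98). Of the 63 that were lower, 62 could be measured and all 62 were lower, 54 by 2-fold or more (median -2.20). The same features had medians of 2.56 and -2.59 in clone 2 and of 0.49 and -0.07 in clone 1, and over all 19233 measurable features the median ratio was 0.04. Features were chosen on the clone 2 libraries, so their clone 2 medians are a description.

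The mirror set, features called in clone 1 against both wild type and clone 2 in the same direction by 2-fold or more and not particular to clone 2, gave other values. Of 19 measurable features higher in clone 1, 11 were higher in the single-end knockout library (median 0.12), and of 29 lower in clone 1, 16 were lower (median -0.01). PDGFRA was at 1.06 and 29.6 CPM in wild type and knockout of that pair, S100A11 at 3.01 and 17.3, and BMP7 at 2.56 and 55.3. SLC17A9 went from 21.3 to 0.121 CPM, and SLC7A3 from 16.5 to 1.99. SERPINB1 stood at 9.88 and 0.63 CPM, so that its RNA remained detectable in that knockout library. RBM4 stood at 83.3 and 25.7 CPM.

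**Figure D5:**
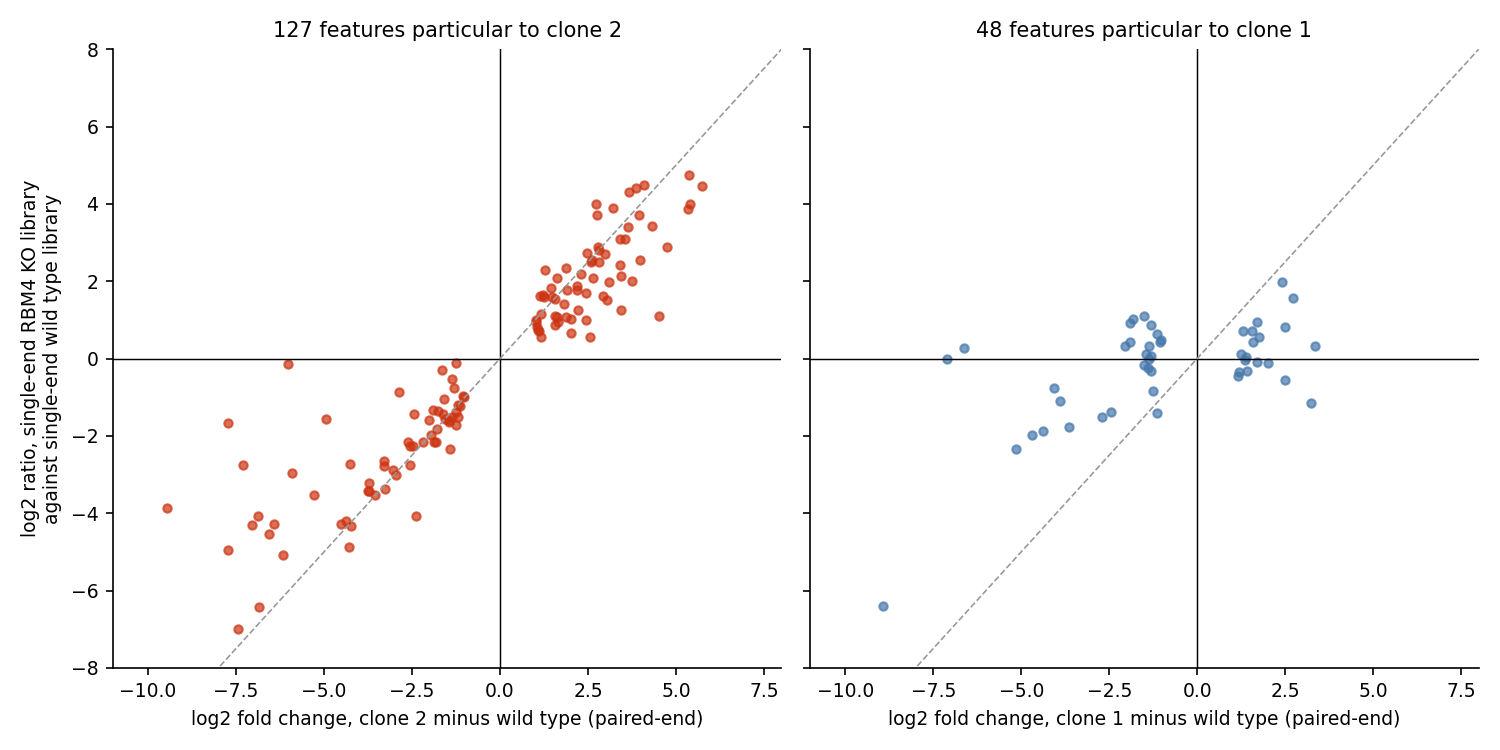
Log2 ratio of the single-end RBM4 knockout library to the single-end wild type library (1 library each) against the paired-end log2 fold change, for 127 features particular to clone 2 (left) and 48 particular to clone 1 (right), all 2-fold or more against both other groups; each dot is a feature and the dashed line marks equal values. On the left 65 higher and 62 lower features keep their direction, and on the right 11 of 19 higher and 16 of 29 lower features do.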

How the data were processed

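RNA of HAP1 cells was sequenced after TruSeq Stranded mRNA preparation, per the labels' protocols. The values analysed are whole-number counts per gene and per repeat subfamily, deposited by the authors as 1 paired-end and 1 single-end table of 58051 gene rows and 1187 repeat rows. The submitters' processing notes name STAR 2.5.2a and the GRCh38 build, and TEToolkit is named in the title of each count table. Symbols, gene types, positions and GC content came from reference tables: 56948 gene IDs had a symbol and 57447 were in GENCODE 29.

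All 8 paired-end libraries were fitted together in R 4.3.3 with edgeR 4.0.16 (filterByExpr, TMM factors, quasi-likelihood test, 1 term per group), and p-values were adjusted by Benjamini-Hochberg over 20747 features. Every adjusted p in the text is from this test unless DESeq2 is named. On simulated counts it recovered 76% of 100 changes of 1.5-fold and 97% of 100 of 2-fold, with 25 false calls among 20172 unchanged features. In that simulation the false calls were a larger share of all calls than the adjusted p threshold of 0.05 allows on average. The changed features all had a log2 CPM averaging 1 or more, and counts were drawn independently without the GC trends of the libraries. Recovery at lower levels and false calls under such trends were therefore not measured. Replicates of a group differed by 4.54 to 22.1 times the sampling variance (chi-square per degree of freedom), and each was counted as a separate sample.

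The comparison, its members and the gene lists were chosen with earlier results of these data known. Named genes were RBM4 and its relatives, the 12 strongest calls each way at log2 CPM averaging 1 or more with no overlap of libraries, 12 each way particular to clone 2 and not called in clone 1, up to 6 each way called oppositely in the clones, up to 2 members each way per list and 5 repeats each way. Alternatives were other scaling, no count filter, fewer libraries, a replicate block, a sample-number term, a GC correction by loess and DESeq2 1.42.0.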

Additional observations from a re-analysis of the deposited data

Results flagged for a closer look

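The clones differed from each other by the test of the difference itself (edgeR's quasi-likelihood test, Benjamini-Hochberg adjusted) in 434 features. Genes called in opposite directions, with clone 2 above clone 1, had these log2 differences: DLC1 4.26, EPHX2 3.51, EPDR1 3.48, CNTNAP2 2.87 and SPAG16 2.28. GRAMD2B had a fitted difference of 8.59, which depends on the prior count because clone 1 had 0 counts. With clone 2 below clone 1, SLC7A3 had a difference of -4.78, ENSG00000254979 -2.78, the overlapping SLC43A3 -2.69, DOC2B -2.77 and TMEM178B -2.14. ALDH1L1 had a fitted difference of -8.35, which is no bound either because clone 2 had 0 counts.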

How the results depend on the processing

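Leaving out 1 library at a time gave 1033 to 2747 features called in clone 2 against wild type, with 629 to 1421 higher and 404 to 1342 lower. The lowest numbers came without clone 2 replicate 1. Clone 2 and clone 1 then differed in 224 to 418 features, and 90 to 148 changes higher and 69 to 133 lower were particular to clone 2, fewest without clone 2 replicate 2. Without a filter on low counts the clones differed in 688 features, 243 of them particular to clone 2 and higher. Falls against wild type were 1629 with only the compared libraries fitted, 1601 with the sample-number term and 1799 with the first sample numbers only, a choice made after seeing the data. Under the last, the clones differed in 224 features, with 86 particular changes higher and 76 lower.

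With the replicate block 2526 features were called, 1434 higher and 1092 lower, and 431 between the clones. Same-numbered libraries of wild type and clone 2 deviated together little (correlations of 0.00871 and 0.054), those of clone 1 and clone 2 more (0.253 and 0.197), and with only 2 such pairs the numbers were not taken as pairing the samples. Of 172 named features 170 were called, 114 of them under all 18 alternatives, and no named feature changed direction. The excess of rises over falls, 1283 against 953, did reverse, to 1527 against 1629, 1463 against 1601 and 1493 against 1799 with the 3 choices of libraries and terms just named for falls. DESeq2 called 2019 features and the GC correction 2088.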
